A study of Danio rerio with 6 samples.

Results

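Hedgehog ligands, their receptors and transducers, and the slow fibre factor prox1a were read from whole zebrafish embryos lacking prdm1a function and from wild-type embryos. Of 9 genes chosen for their place in the pathway (shha, shhb, ihhb, ptch1, gli1, gli2a, smo, hhip and prox1a), 8 had a probe set carrying that symbol alone, 1 each, among 15617 probe sets and 8793 named genes on the array. The receptor gene ptch1 is not analysed here, because no probe set of the table used carried its symbol. Whole embryos at 25 hours post fertilization (hpf) were sorted by eye into mutant and wild-type phenotypes, and their RNA was hybridized to 6 arrays. The 3 mutant arrays held embryos labelled as prdm1 null mutants and the 3 wild-type arrays held embryos labelled wild type. Both groups, called genotypes below, were set by phenotype. Whether the wild-type group held heterozygous carriers was not tested. The labels give no allele, strain or number of embryos in an RNA sample, and are silent on whether replicates are separate clutches, so the tests speak only for the variation among these 6 samples, which may be technical.

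Hedgehog proteins are secreted signals. They bind Patched receptors, which otherwise hold the membrane protein Smoothened inactive, and active Smoothened releases the Gli transcription factors to act on target genes. In the zebrafish trunk the notochord and floor plate are sources of Hedgehog, and the adaxial cells beside the notochord answer by becoming slow muscle. The transcription factor Prdm1a is switched on in these cells downstream of Hedgehog, and Prox1a is a factor of the differentiating slow fibre. The comparison asks whether transcripts of the pathway upstream of prdm1a, and of prox1a, differed in level between the genotypes.

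The deposited values are MAS5 signals on a linear scale, analysed here as log2. Array medians lay between 132 and 148, and the mean after trimming 2% at each end was 500.1 on every array. Over probe sets tested, arrays of different genotype correlated at 0.923 to 0.949 and arrays of 1 genotype at 0.948 to 0.976. A sign of RNA quality is the ratio of 3' to 5' signal at control probes. For actc1b, a muscle actin gene, it ran from 26.2 to 38.8 in the mutant and from 55.4 to 92.4 in the wild type. For gapdhs it ran from 3.28 to 7.65 in the mutant and from 9.16 to 14.5 in the wild type. Whether changes in muscle transcripts bear on the actc1b ratio was not tested. The symbols prdm1a and prdm1b were on no probe set of the table, so the mutated gene itself is not analysed here. The slow myosin heavy chain gene smyhc1 fell by 2.98 on the log2 scale (SE 0.14, limma adjusted p = 2.8e-05).

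No Hedgehog pathway member, and not prox1a, passed the test between genotypes. With genotype as the only term, the 95% intervals of shha, hhip and gli2a put the mutant to wild-type ratio between 0.728 and 1.34. These were grouped after their values were seen. The intervals of smo (1.08 to 1.87) and prox1a (0.861 to 2.57) reached higher. With either 3' over 5' ratio as a covariate each of these intervals was wider. Of the 8 probe sets, 5 lay above the filter on dim values (a mean log2 signal of 5.36, or a signal of 41.1) and were tested: shha, gli2a, smo, hhip and prox1a. Those of shhb, ihhb and gli1 lay below it. None of the 5 passed an adjusted p of 0.05 in limma with Benjamini-Hochberg adjustment over all 10851 probe sets tested, and 1 of 5, smo, had an unadjusted p under 0.05. Over all probe sets tested, 3.39% passed the adjusted threshold (1.54% higher and 1.85% lower in the mutant) and 20.6% had an unadjusted p under 0.05. The arrays of the 2 genotypes did not overlap for 1 of the 5 (smo), where 27% of all probe sets tested were separated so. The median log2 fold change of the 5 was 0.04, against 0.02 over all probe sets tested. A miss of the threshold does not show equal levels, so each difference is given below with its 95% interval.

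The ligand gene shha encodes Sonic hedgehog a, made in the notochord and floor plate. Its signal was 770, 742 and 625 in mutant replicates 1, 2 and 3, and 621, 781 and 671 in wild-type replicates 1, 2 and 3. The highest array of all and the lowest of all were both wild type, so the mutant arrays lay inside the wild-type range. Mutant arrays averaged a log2 signal of 9.47 ± 0.16 and wild-type arrays 9.43 ± 0.17 (SD, n = 3 each). The difference was 0.04 (SE 0.16, 95% interval -0.32 to 0.41, limma adjusted p = 0.904), which bounds the ratio of mutant to wild type between 0.803 and 1.33. It was 0.28 (95% interval -0.29 to 0.84) once the gapdhs ratio entered the fit as a covariate and -0.07 (95% interval -0.82 to 0.69) once the actc1b ratio did. The absolute difference of shha was larger than that of 9.54% of probe sets tested.

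The other 2 ligand genes, shhb, made in the floor plate, and ihhb, made in the notochord, gave dim and scattered signals. The shhb signal was 19.5, 22.3 and 48.4 in the mutant and 30.4, 37.6 and 4.33 in the wild type. The ihhb signal was 16.9, 14.8 and 58.7 in the mutant and 30.8, 25.8 and 43.9 in the wild type. For both genes mutant replicate 3 was the brightest of the 6 arrays and the genotypes overlapped. The SD of log2 signal within a genotype reached 1.72 for shhb (wild type) and 1.097 for ihhb (mutant), against a median residual SD of 0.26 over probe sets tested. The raw differences in mean log2 signal, 0.70 for shhb and -0.42 for ihhb, did not pass when the filter was dropped (limma adjusted p = 0.719 and 0.774). That of shhb changed sign, to -0.29, without wild type replicate 3. That of ihhb ran from -1.05 to -0.05 over 11 alternatives, with -1.05 without mutant replicate 3 and -0.05 without mutant replicate 2. At these signals and this scatter, whether ligand transcripts from shhb or ihhb differed was not resolved.

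**Figure D1:**
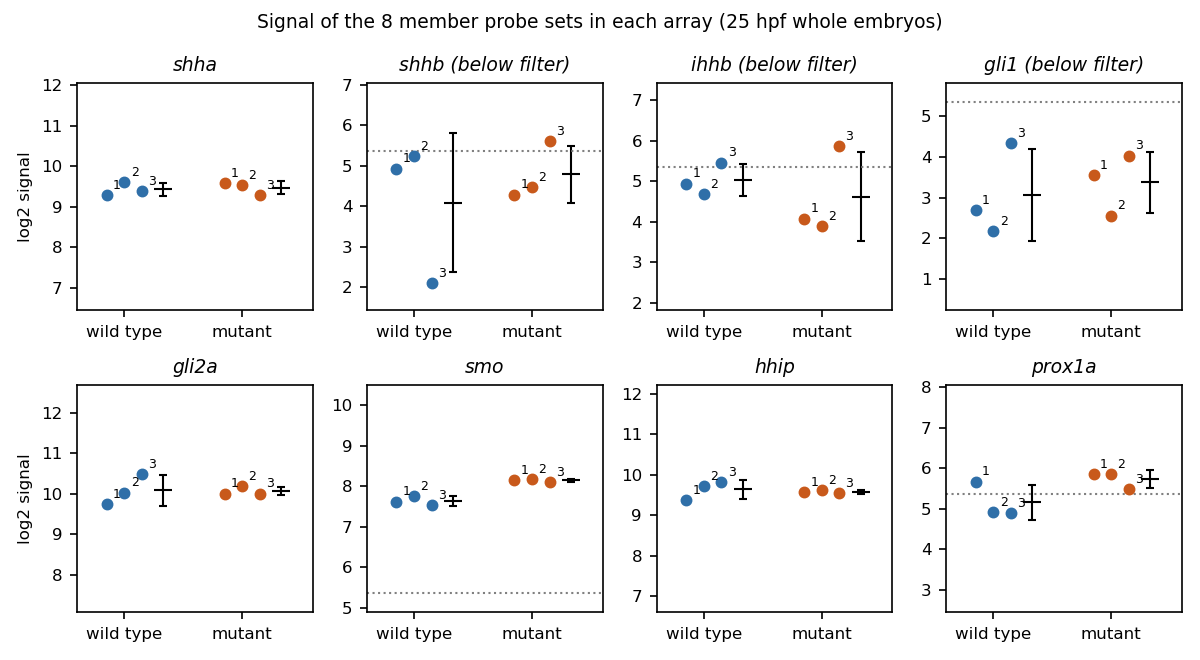
Log2 signal (vertical axis, every panel spanning the same number of log2 units) of the 8 member probe sets in the 3 wild-type (blue) and 3 mutant (orange) arrays, numbered by replicate, with black bars for the mean and SD and a dotted line at the filter level of 5.36 where it falls in range. The smo arrays are the only ones that do not overlap between genotypes, and the dim shhb, ihhb and gli1 arrays scatter most.

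Smoothened, encoded by smo, carries the signal across the membrane and is kept inactive by Patched. The smo signal was 285, 288 and 274 in the mutant and 196, 216 and 184 in the wild type. Every mutant array lay above every wild-type array, and the 3 mutant arrays lay close together. Mutant arrays averaged a log2 signal of 8.14 ± 0.04 and wild-type arrays 7.63 ± 0.12 (SD, n = 3 each), a difference of 0.51 (SE 0.18, 95% interval 0.11 to 0.91) or 1.42-fold. It did not pass over all probe sets tested (unadjusted p = 0.0173, limma adjusted p = 0.147). The interval of this single gene, unadjusted for the number of probe sets, left out 0. The residual SD of smo, 0.0856, was larger than that of 3.46% of probe sets tested, and limma draws such a low value towards that of other probe sets of like signal. Over all 18 alternatives the smo difference ran from 0.37 to 0.57 and none passed (limma adjusted p from 0.0933 to 0.719). With each of the 6 arrays left out in turn it ran from 0.46 to 0.57. The actc1b and gapdhs ratios given above likewise did not overlap between genotypes. With the actc1b ratio as a covariate the smo difference was 0.37 (95% interval -0.46 to 1.19), and with the gapdhs ratio 0.53 (95% interval -0.13 to 1.19).

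The Gli factors gave 1 bright and 1 dim probe set. The gene gli2a encodes a Gli protein that can activate or repress targets. The gli2a signal was 1025, 1164 and 1025 in the mutant and 851, 1044 and 1432 in the wild type, so the wild-type arrays held both the lowest and the highest value. Mutant arrays averaged a log2 signal of 10.06 ± 0.11 and wild-type arrays 10.08 ± 0.38 (SD, n = 3 each), a difference of -0.02 (SE 0.19, 95% interval -0.46 to 0.42, limma adjusted p = 0.966). With the actc1b ratio as a covariate it was 0.66 (95% interval -0.03 to 1.36, limma adjusted p = 0.446). The gene gli1, which encodes an activator of the response and in vertebrates is itself a target of the pathway, gave a signal of 11.7, 5.88 and 16.4 in the mutant and 6.41, 4.52 and 20.3 in the wild type. The brightest and the dimmest gli1 arrays were both wild type. The raw difference in mean log2 signal was 0.31, with a within-genotype SD of up to 1.14, and it did not pass when the filter was dropped (limma adjusted p = 0.884). It was 0.08 with an offset of 16 added before the log, -0.14 without wild type replicate 2, -0.02 without mutant replicate 3 and 0.95 without wild type replicate 3. The gli1 probe set was dimmer on average than all but 9.13% of non-control probe sets. At this signal and scatter, whether this target differed was not resolved.

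Hedgehog-interacting protein, encoded by hhip, binds Hedgehog ligands at the cell surface, limits their action and is known from mouse as a transcriptional target of the pathway. The hhip signal was 757, 786 and 748 in the mutant and 666, 843 and 900 in the wild type. The 3 mutant arrays lay within the wild-type range. Mutant arrays averaged a log2 signal of 9.58 ± 0.04 and wild-type arrays 9.64 ± 0.23 (SD, n = 3 each), a difference of -0.06 (SE 0.16, 95% interval -0.42 to 0.30, limma adjusted p = 0.863). With genotype as the only term, the interval for the ratio of mutant to wild type ran from 0.749 to 1.23. With the gapdhs and the actc1b ratio as covariates the hhip difference was 0.11 (95% interval -0.47 to 0.69) and 0.24 (95% interval -0.45 to 0.94). With ptch1 not analysed and gli1 below the filter, hhip was the 1 known pathway target among the members that was tested. Whole embryos mix muscle with every other tissue that answers Hedgehog, and fewer cells of a type and less RNA per cell cannot be told apart in these samples.

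The homeodomain factor Prox1a acts in slow muscle fibres and also in lens, liver and lymphatic vessels. The prox1a signal was 57.7, 57.9 and 44.8 in the mutant and 50.7, 30.2 and 29.6 in the wild type. Wild type replicate 1 lay above mutant replicate 3, so the genotypes overlapped. Mutant arrays averaged a log2 signal of 5.73 ± 0.21 and wild-type arrays 5.16 ± 0.44 (SD, n = 3 each), and only the mutant mean lay above the filter level. The difference was 0.57 (SE 0.35, 95% interval -0.22 to 1.36, limma adjusted p = 0.388), and the interval for the ratio of mutant to wild type ran from 0.861 to 2.57. It was 0.83 without wild type replicate 1 and 0.44 without wild type replicate 3. With an offset of 64 added before the log, which draws dim differences towards 0, it was 0.22, and with the actc1b ratio as a covariate it was 0.04 (95% interval -1.61 to 1.69). The slow fibre genes smyhc1 and myl13 (-0.98, SE 0.14, limma adjusted p = 0.00824) fell in the same arrays. The myl13 call ended without wild type replicate 2 (limma adjusted p = 0.0555), and with the gapdhs ratio (-0.75, limma adjusted p = 0.247) or the actc1b ratio (-1.29, limma adjusted p = 0.123) as a covariate. Of 13 slow muscle genes listed, 4 were tested, each by 1 probe set, and 2 of 4 fell, where 1.85% of all probe sets tested did. The other 2, named after their values were seen, did not pass (tpm3 at -0.20 and tnnt2c at 0.32). The median of the 4 was -0.59, against 0.02 over all probe sets tested.

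**Figure D2:**
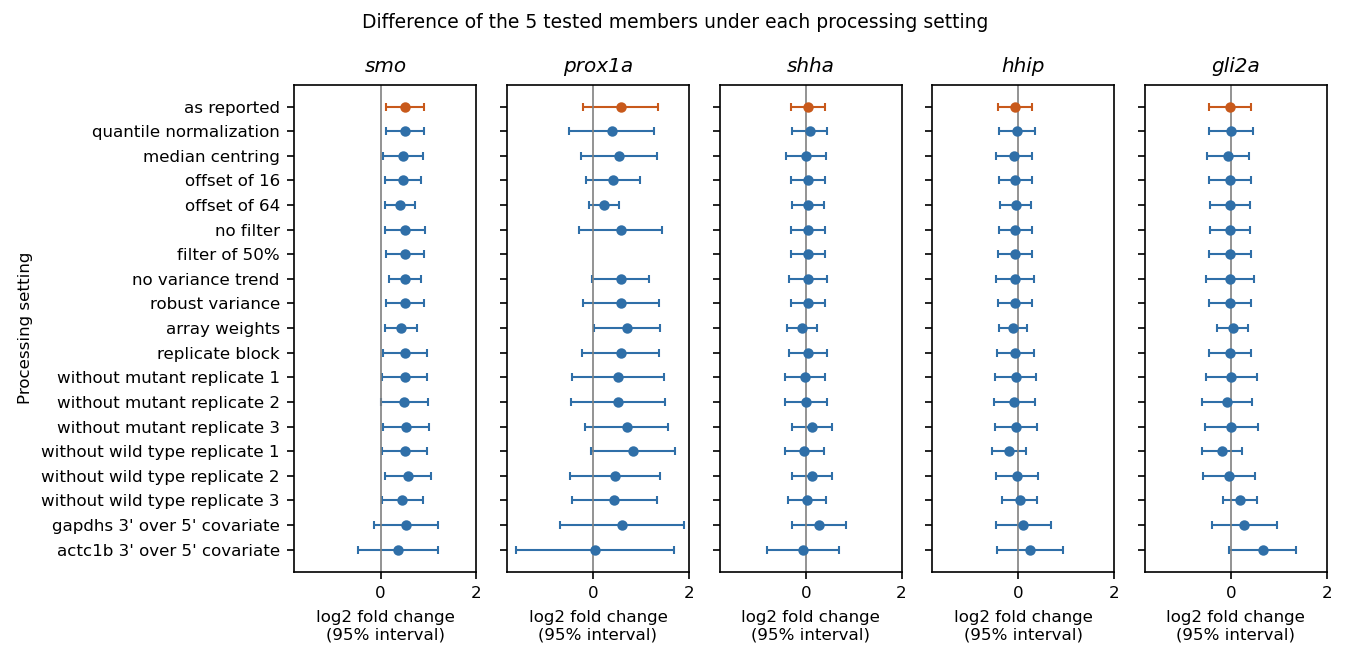
Log2 fold change of mutant over wild type with its 95% interval (horizontal axis) for smo, prox1a, shha, hhip and gli2a under each processing setting (vertical axis), the value as reported in orange and alternatives in blue. The smo difference stays between 0.37 and 0.57, and intervals widen most with the 3' over 5' ratios as covariates. The prox1a probe set is left out by a filter of 50%.

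Among other genes of the pathway, the co-receptor gene cdon rose by 1 of its 3 probe sets and the kinase gene gsk3ba rose. No tested target or marker of a patterned region passed. In all, 68 further genes were listed as helpers of ligand release and reception, as transducers, or as targets and markers of regions patterned by Hedgehog. They were represented by 43 probe sets for 37 genes, and 37 probe sets for 32 genes were tested. Of these 2 rose, 0 fell and 35 did not pass in limma over all probe sets (5.41%, where 3.39% of all probe sets tested passed). Of the 2, gsk3ba passed the filter only through the mutant arrays, its wild-type mean log2 signal being 4.81. The genotypes did not overlap for 8 of the 37 (21.6%, against 27% of all tested). The median log2 fold change was 0.09, and 32 of 37 lay within 0.5 of 0.

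In the release and reception group all 6 tested probe sets were above 0, with a median of 0.38, where 51.6% of all probe sets tested were. They stand for only 3 genes, cdon, boc and gpc4, so they are not 6 separate genes. Cdon and Boc are cell surface proteins that bind Hedgehog together with Patched. The brightest cdon probe set read 818, 611 and 763 in the mutant and 447, 451 and 339 in the wild type, so that each mutant array exceeded each wild-type array. This probe set rose by 0.83 on the log2 scale (SE 0.19), at a limma adjusted p of 0.0478. The other cdon probe sets were at 0.43 (limma adjusted p = 0.256) and 0.46 (limma adjusted p = 0.554) and did not pass. The cdon call ended in 12 of 18 alternatives, among them any left-out array (limma adjusted p up to 0.158), quantile normalization (0.0515) and the replicate block (0.0819). The brightest cdon probe set was at 0.61 with the gapdhs ratio in the fit (limma adjusted p = 0.537). With the actc1b ratio it was at 0.23 (limma adjusted p = 0.804). The probe set at 0.46 instead moved to 1.09 and 1.99 with these ratios (limma adjusted p = 0.582 and 0.235). That at 0.43 moved to 0.20 and 0.62 (limma adjusted p = 0.876 and 0.574). The boc and gpc4 values were chosen after they were seen. The boc probe sets were at 0.34 and 0.10 and gpc4, a cell surface proteoglycan gene, at 0.09, none of which passed.

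Of 13 tested transducers, each by 1 probe set, gsk3ba rose and 12 did not pass (3.39% of all probe sets tested passed), with a median of 0.01. Gsk3ba, a kinase of the family that in mammals phosphorylates Gli proteins and beta-catenin of the Wnt pathway, read 103, 255 and 139 in the mutant and 28.4, 27.6 and 28.0 in the wild type. It rose by 2.46 on the log2 scale (SE 0.36), at a limma adjusted p of 0.00824. The wild-type signals lay below the filter level, and the change was 1.26 with an offset of 64 before the log. With the gapdhs ratio as a covariate it was 2.68 (95% interval 1.34 to 4.01, limma adjusted p = 0.136) and with the actc1b ratio 3.16 (95% interval 1.54 to 4.78, limma adjusted p = 0.155), larger values with wider intervals that did not pass. The other transducers named here were chosen after their values were seen. The Gli repressor gene gli3 read 227, 258 and 212 in the mutant and 291, 421 and 351 in the wild type. Every gli3 mutant array lay below every wild-type array, in the opposite direction to smo. The gli3 difference was -0.60 (SE 0.20, 95% interval -1.04 to -0.15) and did not pass (limma adjusted p = 0.137). It passed in 1 of 18 alternatives, array weights, under which 1416 probe sets did. It was -0.36 with the gapdhs ratio and -0.47 with the actc1b ratio as a covariate. The ciliary transport gene ift88 was at -0.86 (95% interval -1.58 to -0.15, limma adjusted p = 0.169), its mutant arrays all lower than its wild-type arrays, and passed in none of 17 alternatives. The Gli-binding repressor gene sufu was at -0.03 (95% interval -0.42 to 0.35) and the kinesin gene kif7 at 0.09 (95% interval -0.46 to 0.63).

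None of the 18 probe sets tested for targets and patterned regions passed in limma, where 3.39% of all probe sets tested did. Of 29 genes in this list, 16 were tested. Those with no probe set under their symbol included eng1a, eng1b, eng2a, eng2b, nkx6.1, foxf1 and pax1a. An unadjusted p under 0.05 in limma was reached by 1 of 18, against 20.6% of all tested. Their median was 0.08, and they ran from -0.62 to 0.39. The smallest p-values were those of nkx2.2b, a homeobox gene of the ventral neural tube, at -0.62 (limma adjusted p = 0.169), and pax2a, of the midbrain-hindbrain boundary and optic stalk, at 0.32 (limma adjusted p = 0.380). The floor plate and ventral midline genes foxa2 and foxa, chosen after their values were seen, were at -0.14 (95% interval -0.52 to 0.25) and 0.13 (95% interval -0.42 to 0.69). The motor neuron and oligodendrocyte progenitor gene olig2, chosen likewise, was at 0.05 (95% interval -0.36 to 0.46). The paralogous nkx2.2a, chosen likewise, was at -0.002, and its 95% interval of -0.81 to 0.81 held the value of nkx2.2b.

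**Figure D3:**
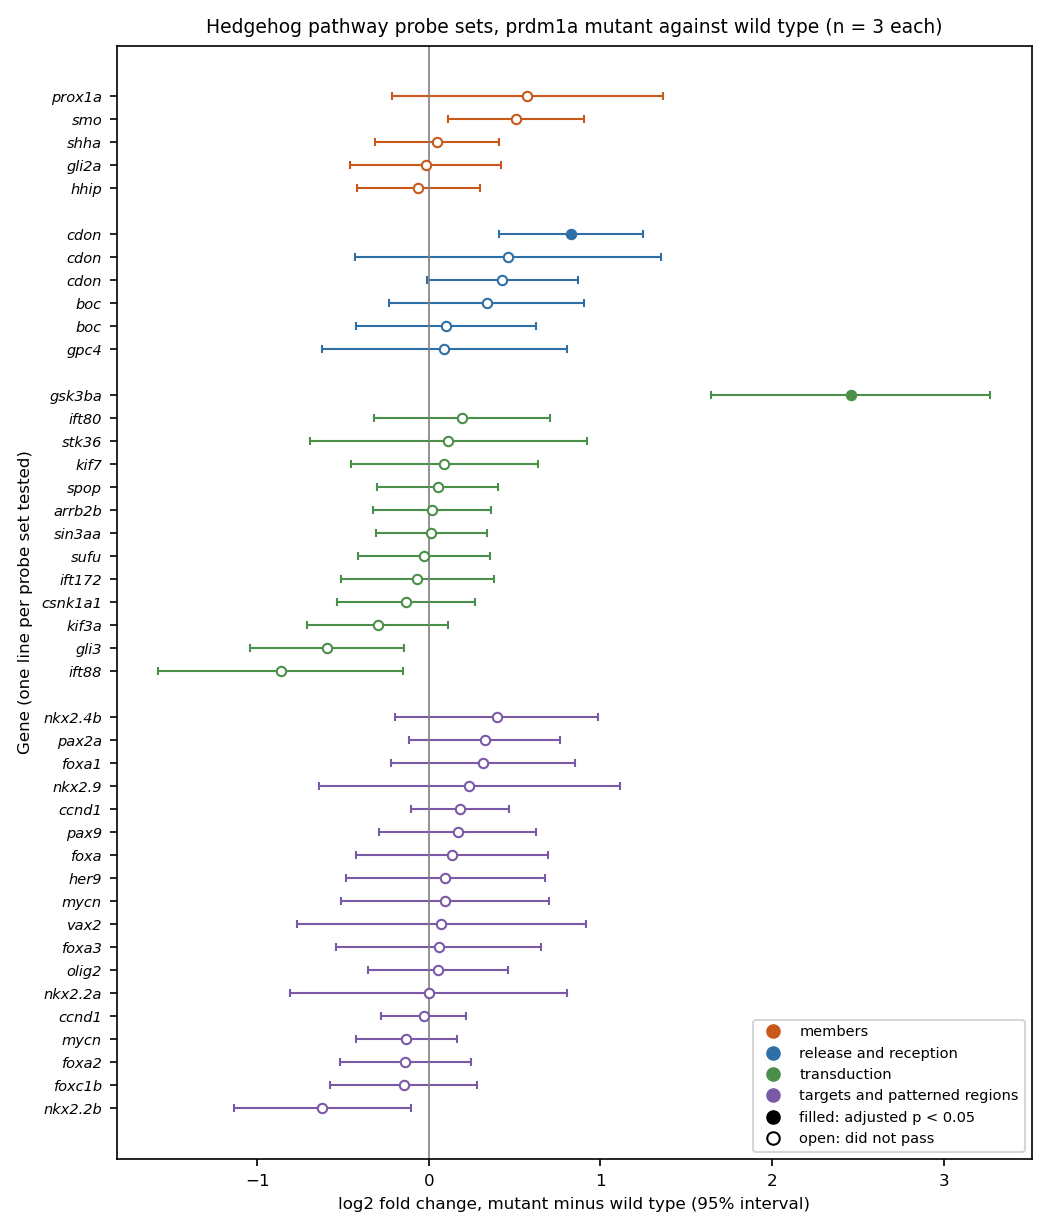
Log2 fold change of mutant over wild type with its 95% interval (horizontal axis) for each tested probe set of the members and of the other Hedgehog pathway genes (vertical axis), n = 3 arrays per genotype. Filled points passed an adjusted p of 0.05. These are 1 of 3 cdon probe sets and gsk3ba, and the 5 members are open points.

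Genes listed for the notochord, the tissue that makes shha and ihhb, gave values mostly above 0 without a call. Of 12 notochord probe sets tested for 9 genes, 0 passed in limma, where 3.39% of all probe sets tested did. An unadjusted p under 0.05 was found for 7 of 12 (20.6% of all probe sets tested). Values above 0 were found for 10 of 12 (51.6% of all tested), with a median of 0.48. The genotypes did not overlap for 7 of 12 (58.3%, against 27% of all tested), 6 higher and 1 lower in the mutant. The laminin gene lamc1 (1.45, limma adjusted p = 0.0514) and the collagen gene col9a2 (0.77, limma adjusted p = 0.0564) had the smallest p. The lamc1 probe set passed the filter only through the mutant arrays, its wild-type mean log2 signal being 5.13, and its difference was 0.68 with an offset of 64 before the log. The call depended on processing for lamc1, which passed in 6 of 17 alternatives, and for col9a2, which passed in 2 of 18. With the gapdhs and the actc1b ratio as covariates, lamc1 was at 1.34 and 1.45 and col9a2 at 1.04 and 1.01, short of the threshold each time (limma adjusted p from 0.224 to 0.460). The notochord genes named next were chosen after their values were seen. The 2 values below 0 were of cav1, at -0.44 (limma adjusted p = 0.106, mutant arrays all lower) and -0.23. Other cav1 probe sets were at 1.22 (limma adjusted p = 0.097, mutant arrays all higher) and 0.37. The genes col2a1a, lamb1a and col9a3 were at 0.60, 0.59 and 0.64, with mutant arrays all higher. None of these passed (limma adjusted p = 0.0706, 0.121 and 0.208). The genes tbxta, noto and ptgs1 were at 0.27, 0.26 and 0.12 (limma adjusted p = 0.544, 0.642 and 0.778). Which tissues of the whole embryo gave the signals of this list was not tested.

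Of 12 adaxial and fast muscle probe sets tested for 11 genes, 5 rose and 7 did not pass, with a median of 0.70, where 1.54% of all probe sets tested rose. These were mybpc2b (1.94), tnnt3a (1.16), 1 of 2 mylpfa probe sets (0.71), tpma (0.60) and tnnt3b (1.19), the last named after its values were seen. The other mylpfa probe set was at 0.23 (limma adjusted p = 0.323). The calls ended in 1 of 18 alternatives for mybpc2b, 2 for tnnt3a, 6 for mylpfa, 8 for tnnt3b and 10 for tpma, the last including the replicate block (limma adjusted p = 0.0648). With the actc1b ratio as a covariate none of the 5 passed (limma adjusted p from 0.161 to 0.651), and each had a larger standard error. The mybpc2b value was then 1.92 (SE 0.45, against 0.21 without the covariate). Those of tnnt3a and tnnt3b were 0.96 (SE 0.29) and 1.04 (SE 0.52). The mylpfa probe set that rose was at 0.44 (SE 0.22) and tpma at 0.28 (SE 0.22). With the gapdhs ratio mybpc2b passed (2.30, limma adjusted p = 0.0319) and the other 4 did not. The adaxial and myogenic factor gene myod1, a gene that Hedgehog maintains in adaxial cells and chosen after its values were seen, was at 0.76 (limma adjusted p = 0.233). The other tested factor genes of the list, chosen likewise, went both ways and did not pass. They were mef2ca at 0.70, myf5 at 0.25, mef2d at -0.05 and myog at -0.15. Under quantile normalization and median centring mybpc2b was at 1.95 and 1.90. The part of tissue shares in these values was not tested.

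**Figure D4:**
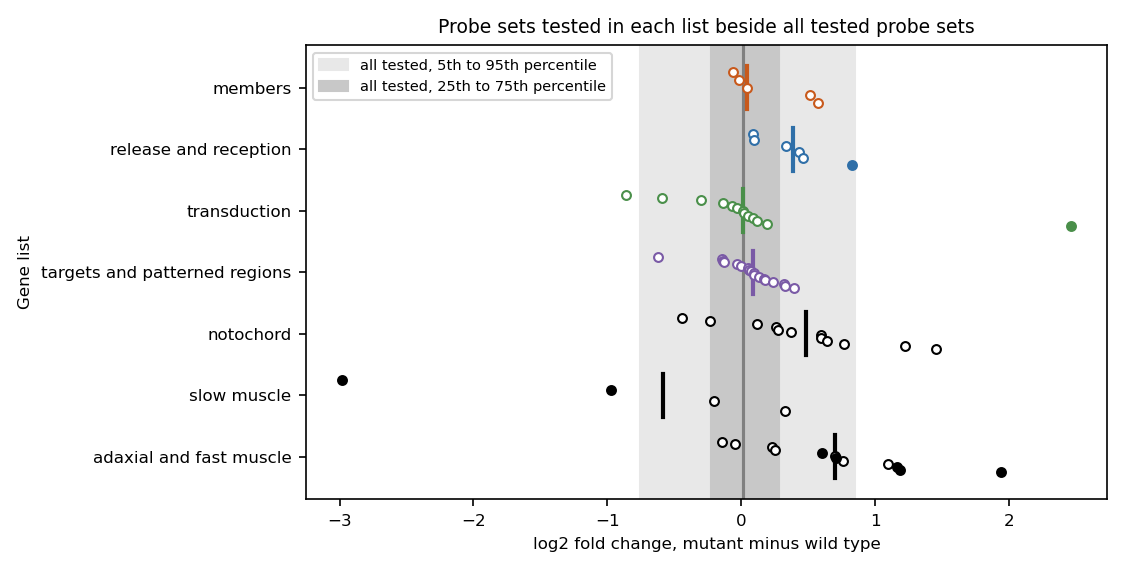
Log2 fold change of mutant over wild type (horizontal axis) of each tested probe set in 7 gene lists (vertical axis), with the list's median as a bar and filled points for an adjusted p under 0.05. The grey bands show all 10851 tested probe sets. The members' median, 0.04, lies near 0, that of notochord genes at 0.48 and that of adaxial and fast muscle genes at 0.70.

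Likeness of pattern is given as a description. Across the 6 arrays and 8114 named probe sets of other genes, the log2 signal most like that of shha was that of acsl1a (Pearson r = 0.97), followed by arcn1b (0.95) and LOC100150229 (0.95). For prox1a it was that of ap4m1 (0.99), bcas2 (0.97) and rab12 (0.97). All these values share the same 6 arrays and their scaling, and 21 probe sets reached 0.95 with prox1a and 2 with shha. None of the 6 genes named here passed the test between genotypes in limma (adjusted p from 0.209 to 0.946).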

How the data were processed

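Messenger RNA of 6 whole-embryo samples, 3 per genotype, was measured on Affymetrix arrays after ribosomal RNA reduction and whole-transcript amplification, per the labels' protocols. The deposited intensity values were made by the authors using MAS5 (submitters' processing notes). Neither its version nor its scaling target or detection calls could be taken from the labels. All 15617 probe sets were named from a platform annotation (10802 with 1 symbol, 135 with several, 4680 with none), updated through RefSeq gene IDs, which changed 1 symbol. Intensities were log2-transformed. The 115 control probe sets and the lowest 30% of the others by mean log2 signal (4651) were left out, and 10851 were fitted with limma 3.58.1 in R 4.3.3 (eBayes with a variance trend, prior 5.08 degrees of freedom), genotype being the only term. Benjamini-Hochberg adjustment ran over all tested at 0.05, and 95% intervals are for single probe sets. The number of arrays limits precision: the median standard error was 0.22. The fit was tested on simulated data of independent noise with added changes. These held no shared array effects and no difference in 3' over 5' ratios, so that test does not bear on either. The members, gene lists and tests were chosen with earlier results of these data known. Genes named were all members, up to 4 passing probe sets of each list (or the 2 with the smallest p), the 3 nearest patterns to shha and prox1a, and others said to be chosen after their values were seen. Alternatives covered normalization, offsets of 16 and 64, filters, variance models, array weights, replicate number as a blocking term, leaving out each array, and the 3' over 5' ratios as covariates. Figures were drawn with matplotlib 3.10.9.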

Additional observations from a re-analysis of the deposited data

How the results depend on the processing

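None of the 18 alternatives brought any of the 5 tested members past the threshold. The smo and prox1a differences kept their sign throughout, with prox1a from 0.04 to 0.83. Those of shha (-0.08 to 0.28), hhip (-0.19 to 0.24) and gli2a (-0.19 to 0.66) changed sign in 4, 3 and 7 alternatives and were never called. A filter of 50% left prox1a untested. Of all probe sets, 368 passed as reported, 1416 with array weights, 44 with the gapdhs ratio and 26 with the actc1b ratio as a covariate. With each array left out the count ran from 114 (without wild type replicate 2) to 461 (without wild type replicate 3), and was 210, 200 and 170 without mutant replicates 1, 2 and 3. Of the other pathway genes, 2 probe sets passed as reported. With quantile normalization, median centring, a filter of 50%, no variance trend, the replicate block or any array left out, 1 passed. That probe set was of cdon with the filter of 50%, which left gsk3ba untested, and of gsk3ba in the rest. With either ratio as a covariate 0 passed. The cause was not tested. Correlations of same-numbered deviations ran from -0.07 to 0.06, and those of differently numbered ones from -0.12 to 0.07. Pairing by replicate number was thus not seen, but whether replicates shared a clutch was not tested. With the replicate block 260 probe sets passed and the smo difference had an adjusted p of 0.222 (limma). Dim signals limit shhb, ihhb, gli1 and prox1a.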
